A study of Mus musculus with 24 samples.

Results

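The 10 genes Mfn1, Mfn2, Opa1, Dnm1l, Mff, Fis1, Pink1, Bnip3, Bnip3l and Fundc1, which encode proteins of mitochondrial fusion, fission and mitophagy, were followed in mouse mammary glands before and during lactation. They were chosen by symbol as the core machinery of these processes, and all 10 were found among the 32544 gene symbols of the table and passed the filter on low values.

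Poly(A) RNA was sequenced from the inguinal mammary gland of 24 mice, 3 in each of 8 groups. The groups were NZB and C57 mice, both labelled as BL/6, each non-lactating and on lactation days 8, 14 and 21. Names of this form are used for conplastic mice, in which a BL/6 nucleus is combined with the mitochondrial DNA of NZB or C57 mice, and the labels give neither the age of the mice nor any treatment. Each gland is whole tissue holding epithelium, fat, stroma and blood cells, and the non-lactating glands are the common baseline of all lactation comparisons.

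Mitochondria fuse and divide continually. Mfn1 and Mfn2, the mitofusins, are outer membrane GTPases that tether and fuse mitochondria, Mfn2 also links them to the endoplasmic reticulum, and Opa1 fuses the inner membranes and shapes cristae. Dnm1l (also called Drp1) is the dynamin-like GTPase that constricts mitochondria, recruited to the outer membrane by receptors such as Mff, with Fis1 as a further adaptor. In mitophagy, the removal of mitochondria by autophagy, the kinase Pink1 builds up on damaged mitochondria and recruits the ubiquitin ligase Parkin, whereas Bnip3, Bnip3l (also called Nix) and Fundc1 are outer membrane receptors that bind LC3 proteins directly. Bnip3 is a known target of hypoxia-inducible factors, and the secretory epithelium of the lactating gland is rich in mitochondria.

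Depth was 14.81 to 24.25 M assigned reads (in units of 1000000 reads, M) per lactating gland and 7.03 to 15.88 M per non-lactating gland. The lowest, C57 non-lactating mouse 2, averages 2 unequal columns of 2.17 and 11.89 M reads, which also differed most from each other (chi-square per gene 1.565). A set of 19 milk protein genes held 61.69 to 76.09% of the counts in C57 lactating glands and in NZB glands on days 8 and 14, 18.07 to 30.37% in NZB glands on day 21, and 0.46 to 1.98% in non-lactating glands. Levels are therefore given in CPM (reads scaled to a total of 1000000 per mouse) after leaving these 19 genes out and rescaling the rest (the non-milk scale), and results are given on the deposited scale beside them. The 12 white adipocyte markers, summed on the non-milk scale, stood at 5322 to 14770 CPM in NZB and 7082 to 12260 CPM in C57 non-lactating glands. Among non-lactating glands NZB mice 2 and 3 stood apart. Their 8 B cell markers summed to 709 and 1538 CPM and their 8 T cell markers to 186.6 and 1165 CPM, against 39.3 and 20.3 CPM in NZB mouse 1 and at most 39.7 and 21.2 CPM in C57. NZB mouse 3 also had the lowest white adipocyte sum, and C57 mouse 2 had the lowest white adipocyte sum of its group. The labels of C57 non-lactating mouse 3 conflict, since the tag for genotype says NZB. The title was followed.

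The members differed widely in level. Per kilobase of annotated exon, in NZB non-lactating glands Bnip3 stood highest at 92.8 CPM per kilobase, followed by Mfn2 at 34.8, Pink1 at 27.8, Bnip3l at 20.2, Dnm1l at 18.4, Opa1 at 12.6, Mfn1 at 6.18, Fundc1 at 5.91, Mff at 5.65 and Fis1 at 3.28. On day 8 Bnip3 still led in NZB glands at 45.8 CPM per kilobase, but Mfn2 had come down to 11.7, beside Mfn1 at 12.5 and Opa1 at 12.4. Fis1 rested on as few as 18 reads in a mouse, so that counting error alone is large for it, while each of the other members had at least 78 reads in every mouse. In GRCm38, the build named in the submitters' processing notes, Mfn1 lies at chr3:32529465-32579239 on the + strand, and Mfn2 at chr4:147873599-147904704, Bnip3 at chr7:138890836-138909519 and Bnip3l at chr14:66985239-67008877 on the - strand. Of the exon bases of Bnip3, 22.3% are shared with an antisense gene, and whether the counting used strand is not given in the sources used here.

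**Figure D1:**
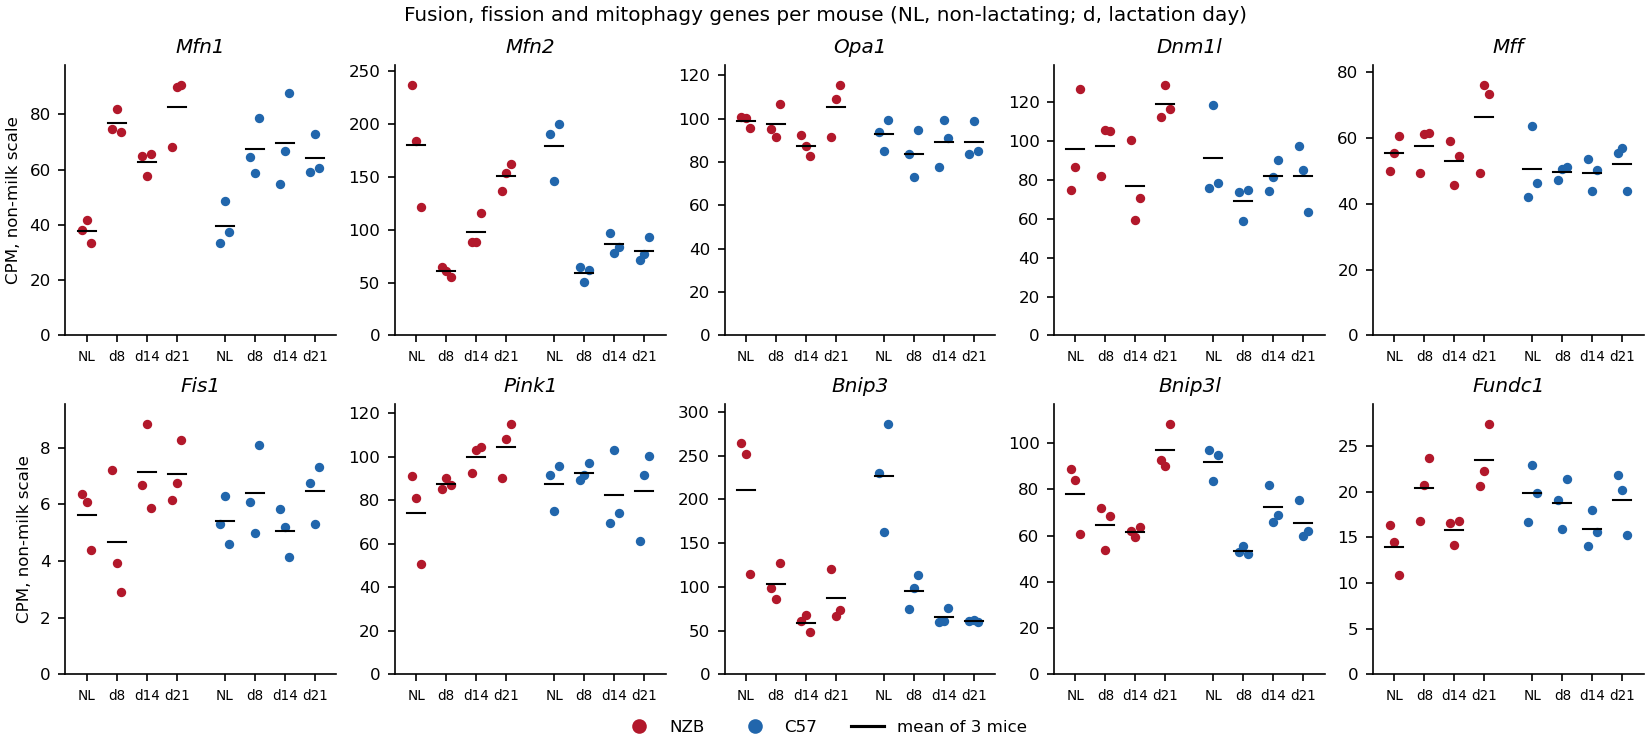
Level of each of the 10 genes in CPM on the non-milk scale (vertical axes, each from 0), with 1 point per mouse and a line at the mean of 3 mice, in NZB (red) and C57 (blue) glands that were non-lactating (NL) or on lactation day 8, 14 or 21. Mfn1 stands higher and Bnip3 mostly lower in lactating than in non-lactating glands on this scale, Mfn2 is lowest on day 8, and Opa1 stays within 73.2 to 115 CPM over all 24 mice; on the deposited scale Mfn1 is lower in every lactating group but NZB day 21.

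The first comparisons asked how the members differed between lactating and non-lactating glands. On the non-milk scale the mitofusins went opposite ways: Mfn1 rose on all 3 days in both genotypes, although on the deposited scale it fell in every lactating group but NZB day 21, and Mfn2 fell in every lactating group but NZB day 21. Bnip3 fell in all 6 lactating groups on both scales. Of the other members, Opa1, Dnm1l, Mff, Fis1 and Pink1 did not pass the test in any of the 6 comparisons on the non-milk scale. In bulk tissue, fewer cells of a type and less RNA per cell cannot be told apart. The samples are labelled as separate mice. The p-values rest on the spread between mice within groups, pooled over all 8 groups, and not on that of the compared groups alone. Groups differed in spread, as for Bnip3 on the non-milk scale, with a log2 SD of 0.67 in NZB non-lactating and 0.03 in C57 day 21 glands.

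Mfn1 stood at 38.1, 41.8 and 33.5 CPM in NZB non-lactating mice, 74.5, 81.9 and 73.6 CPM on day 8, 64.7, 57.7 and 65.7 CPM on day 14 and 68.2, 89.7 and 90.5 CPM on day 21. In C57 mice Mfn1 stood at 33.3, 48.5 and 37.5 CPM before lactation, 64.7, 58.7 and 78.7 CPM on day 8, 54.8, 66.6 and 87.8 CPM on day 14 and 59.3, 72.8 and 60.6 CPM on day 21. No lactating gland of either genotype overlapped the non-lactating glands of its genotype. The log2 fold over non-lactating glands was 1.01 ± 0.18 (limma SE), 0.72 ± 0.18 and 1.10 ± 0.18 on days 8, 14 and 21 in NZB (adjusted p = 9.7e-05, 0.0027 and 7e-05 by limma over all genes tested). In C57 it was 0.75 ± 0.18, 0.79 ± 0.18 and 0.69 ± 0.18 (limma adjusted p = 0.0017, 0.0013 and 0.004). These rises of Mfn1 passed under every alternative run on the non-milk scale. On the deposited scale Mfn1 fell by 0.86, 1.04, 1.13, 0.94 and 1.04 on the log2 scale in NZB on days 8 and 14 and in C57 on days 8, 14 and 21, less than the median gene in each. It was higher by 0.72 ± 0.22 in NZB on day 21 (limma adjusted p = 0.013). That last call was lost without NZB day 21 mouse 2 (0.59, adjusted p = 0.062) or mouse 3 (0.66, adjusted p = 0.053), with the compared groups alone (adjusted p = 0.069) and with sample weights (adjusted p = 0.073).

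Mfn2 stood at 237, 184 and 121 CPM in NZB non-lactating mice, 64.8, 61.3 and 55.7 CPM on day 8, 88.2, 88.2 and 116 CPM on day 14 and 136, 154 and 162 CPM on day 21. In C57 mice it stood at 191, 146 and 200.3 CPM before lactation, 64.8, 51.0 and 62.3 CPM on day 8, 97.4, 77.6 and 84.0 CPM on day 14 and 71.0, 76.8 and 93.2 CPM on day 21. The lactating and non-lactating glands did not overlap in C57 on any day or in NZB on days 8 and 14, while the NZB glands of day 21 lay within the range of the NZB non-lactating glands. The log2 fold over non-lactating glands was -1.51 ± 0.20 and -0.84 ± 0.20 on days 8 and 14 in NZB (limma adjusted p = 1.9e-06 and 0.0015). In C57 it was -1.57 ± 0.20, -1.04 ± 0.20 and -1.14 ± 0.20 on the 3 days (limma adjusted p = 1.1e-06, 0.00021 and 7e-05). On day 21 in NZB it was -0.21 ± 0.20 (limma adjusted p = 0.45). Without NZB non-lactating mouse 3 and C57 non-lactating mouse 2 that value was -0.47 (limma adjusted p = 0.035). Without NZB non-lactating mice 2 and 3 it was -0.65, but this leaves only mouse 1, the highest of its group at 237 CPM, as the baseline. On the deposited scale the NZB day 21 value of Mfn2 was -0.60 ± 0.26 (limma adjusted p = 0.07), and -0.86 (adjusted p = 0.016) without NZB non-lactating mouse 3. The NZB day 14 value no longer passed when scaled by median-of-ratios size factors (-0.55, limma adjusted p = 0.09) or fitted on the compared groups alone (-0.84, limma adjusted p = 0.051).

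Because both mitofusins are read in the same library, their ratio does not depend on the scale. Mfn1 over Mfn2, in CPM, averaged 0.221 ± 0.058 (SD, n = 3) in NZB before lactation, 1.27 ± 0.10 on day 8, 0.651 ± 0.084 on day 14 and 0.547 ± 0.043 on day 21. In C57 it averaged 0.232 ± 0.088 before lactation, 1.14 ± 0.13 on day 8, 0.822 ± 0.24 on day 14 and 0.811 ± 0.15 on day 21. Every lactating gland, at 0.5 or higher, lay above every non-lactating gland, at 0.333 or lower, and day 8 had the highest mean in both genotypes. However, 1 C57 gland of day 14 (1.05) reached into the C57 range of day 8 (0.999 to 1.26). A single exact permutation test of 3 against 3 mice cannot go below p = 0.1, so the ratios are given without one.

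**Figure D2:**
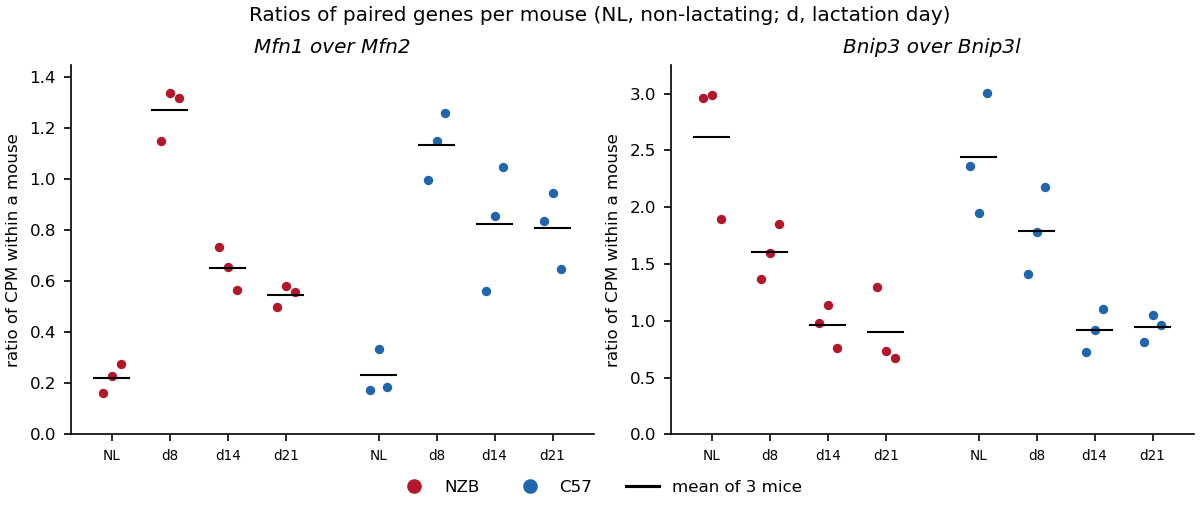
Ratio of Mfn1 to Mfn2 and of Bnip3 to Bnip3l within each mouse, from CPM (vertical axes, from 0), for NZB (red) and C57 (blue) glands by stage (NL, non-lactating; d, lactation day), with a line at the mean of 3 mice. The Mfn1 to Mfn2 ratio is at most 0.333 in non-lactating glands and highest on day 8, and the Bnip3 to Bnip3l ratio is lower on days 14 and 21 than in non-lactating glands.

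Among the mitophagy receptors Bnip3 moved most. It stood at 264, 252 and 115 CPM in NZB non-lactating mice, 98.6, 85.9 and 127 CPM on day 8, 61.0, 67.4 and 48.4 CPM on day 14 and 121, 66.3 and 73.2 CPM on day 21. In C57 it stood at 229.6, 163 and 286 CPM before lactation, 74.2, 99.1 and 113 CPM on day 8, 59.4, 60.8 and 75.8 CPM on day 14 and 61.4, 62.6 and 59.8 CPM on day 21. The C57 lactating and non-lactating glands did not overlap, whereas NZB non-lactating mouse 3, at 115 CPM, lay below 1 NZB mouse of day 8 and 1 of day 21. The log2 fold over non-lactating glands was -0.94 ± 0.28, -1.74 ± 0.28 and -1.23 ± 0.28 on days 8, 14 and 21 in NZB (limma adjusted p = 0.0079, 2.6e-05 and 0.0016). In C57 it was -1.22 ± 0.28, -1.75 ± 0.28 and -1.83 ± 0.28 (limma adjusted p = 0.001, 2.5e-05 and 1.4e-05), which passed under every alternative run. In NZB the day 8 call was lost with median-of-ratios scaling (-0.65, limma adjusted p = 0.13), with the compared groups alone (adjusted p = 0.065) and without NZB non-lactating mouse 2 (-0.76, adjusted p = 0.05). The day 21 call was lost with the compared groups alone (limma adjusted p = 0.06).

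Bnip3l, its paralogue, moved less. It fell in C57 on day 8 by 0.77 and on day 21 by 0.48 on the log2 scale (limma adjusted p = 0.00042 and 0.019). The C57 levels were 97.2, 83.5 and 95.0 CPM before lactation, 52.8, 55.7 and 52.0 CPM on day 8, 81.9, 66.1 and 68.8 CPM on day 14 and 75.3, 59.8 and 62.0 CPM on day 21. None of the C57 lactating glands reached the lowest C57 non-lactating gland. On day 14 the C57 log2 fold was -0.35 ± 0.16 (limma adjusted p = 0.092), or -0.56 (adjusted p = 0.0072) when only 8 milk genes (the caseins, Wap, Lalba and Glycam1) were left out and -0.41 (adjusted p = 0.033) without NZB mouse 3 and C57 mouse 2 of the non-lactating groups. The day 21 call was lost with the compared groups alone (adjusted p = 0.064) and on leaving out C57 non-lactating mouse 1 or 3 or C57 day 21 mouse 2 or 3 (-0.46 to -0.42, adjusted p = 0.058 to 0.081). With median-of-ratios scaling neither C57 call held (-0.45 on day 8, adjusted p = 0.08, and -0.29 on day 21, adjusted p = 0.27). In NZB Bnip3l had 89.0, 84.2 and 60.5 CPM before lactation, 71.9, 53.7 and 68.6 CPM on day 8, 62.0, 59.2 and 63.8 CPM on day 14 and 93.0, 90.2 and 108 CPM on day 21. It passed on none of these days (limma adjusted p = 0.19, 0.11 and 0.12). Without NZB non-lactating mouse 3, the lowest of its group, the NZB values were -0.43 on day 8 (adjusted p = 0.031) and -0.48 on day 14 (adjusted p = 0.016).

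The ratio of Bnip3 to Bnip3l came down in both genotypes. It averaged 2.62 ± 0.62 (SD, n = 3) in NZB before lactation, 1.61 ± 0.24 on day 8, 0.960 ± 0.19 on day 14 and 0.904 ± 0.34 on day 21. In C57 it averaged 2.44 ± 0.53, 1.79 ± 0.39, 0.915 ± 0.19 and 0.942 ± 0.12 at the same stages. On days 14 and 21 no gland reached 1.9, the lowest value of a non-lactating gland, while on day 8 the C57 glands, at 1.41 to 2.18, overlapped the C57 non-lactating glands, at 1.95 to 3.01.

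Fundc1 rose in NZB on days 8 and 21 on the non-milk scale and passed on no day in C57. The difference between genotypes in these changes was not tested. It stood at 16.4, 14.6 and 10.8 CPM in NZB non-lactating mice, 16.8, 20.8 and 23.7 CPM on day 8, 16.5, 14.2 and 16.8 CPM on day 14 and 20.6, 22.3 and 27.4 CPM on day 21. C57 mice held 15.3 to 23.0 CPM outside day 14 and 14.1 to 18.0 CPM on day 14. The log2 fold over non-lactating glands in NZB was 0.53 ± 0.21 on day 8, 0.19 ± 0.21 on day 14 and 0.72 ± 0.21 on day 21 (limma adjusted p = 0.038, 0.46 and 0.0092). In C57 it was -0.07 ± 0.21, -0.30 ± 0.21 and -0.06 ± 0.21 on the 3 days. Fundc1 fell on the deposited scale in NZB on days 8 and 14 and did not pass on day 21 (0.35 ± 0.24, limma adjusted p = 0.25). The day 8 call held in 9 of 18 alternatives and was lost, among others, on leaving out NZB non-lactating mouse 2 or 3 or NZB day 8 mouse 2 or 3 (0.37 to 0.57, adjusted p = 0.058 to 0.18). The day 21 call held in 15 of 18. It was lost without NZB day 21 mouse 3 (0.61, adjusted p = 0.059) and with the compared groups alone (adjusted p = 0.091). It was also lost without NZB non-lactating mice 2 and 3 (0.48), which leaves only mouse 1 as the baseline.

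Pink1, the kinase of the Parkin pathway, had higher means at each lactation stage in NZB, without passing the test. NZB levels were 90.9, 81.1 and 50.8 CPM before lactation, 85.3, 90.5 and 87.0 CPM on day 8, 92.4, 103 and 104.5 CPM on day 14 and 90.2, 108 and 115 CPM on day 21. The day 21 glands overlapped the NZB non-lactating glands, and the log2 fold was 0.46 ± 0.20 on day 14 and 0.52 ± 0.20 on day 21 (limma adjusted p = 0.065 and 0.053). C57 glands held 61.5 to 103 CPM over all stages, with log2 folds of 0.09, -0.10 and -0.07. For the NZB day 21 value 4 of 18 alternatives passed, among them limma voom on the recovered reads (adjusted p = 0.046) and leaving out NZB non-lactating mouse 1 (0.69, adjusted p = 0.018), which also gave 0.63 (adjusted p = 0.019) on day 14. Over the alternatives the NZB log2 fold ranged from -0.05 to 0.56 on day 8, 0.13 to 0.75 on day 14 and 0.19 to 0.69 on day 21. NZB non-lactating mouse 3 was lowest at 50.8 CPM, while the values of mice 1 and 2, 90.9 and 81.1 CPM, enclosed those of day 8.

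The inner membrane fusion gene Opa1 and the fission receptor gene Mff varied least over the 24 mice, by 1.58 and 1.8 times between the lowest and highest mouse. The other fission genes varied more, Dnm1l by 2.19 and the thinly read Fis1 by 3.05 times. Opa1 lay between 73.2 and 115 CPM over all 24 mice, with log2 folds over non-lactating glands of -0.17 to 0.08. Dnm1l lay between 58.7 and 128 CPM, with log2 folds of -0.37 to 0.34. Its 2 highest non-lactating values, 126 and 118 CPM, came from NZB mouse 3 and C57 mouse 2, the mice with the lowest white adipocyte sums of their groups. Without those mice the log2 fold of Dnm1l on NZB day 21 was 0.56 (limma adjusted p = 0.036), against 0.34 ± 0.22 (adjusted p = 0.25) with them. Mff, the Dnm1l receptor, lay between 42.1 and 75.8 CPM with log2 folds of -0.06 to 0.24, and Fis1 between 2.89 and 8.84 CPM with log2 folds of -0.28 to 0.30. None of these 4 genes passed in any of the 6 comparisons on the non-milk scale.

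Counted over the members on the non-milk scale, NZB glands had 2 of 10 higher and 2 lower on day 8, where 47.8% of all genes tested passed in either direction, 1 higher and 2 lower on day 14 (background 46.9%), and 2 higher and 1 lower on day 21 (background 32.9%). C57 glands had 1 higher and 3 lower on day 8 (background 45.1%), 1 higher and 2 lower on day 14 (background 39.2%) and 1 higher and 3 lower on day 21 (background 40.1%). The members passed at shares of 30 to 40%, near or below these backgrounds, so the count itself is not a result about them. The median log2 fold of the 10 members was 0.02, -0.12 and 0.31 in NZB and -0.11, -0.11 and -0.07 in C57 on the 3 days, against -0.32, -0.35 and -0.06 and -0.33, -0.20 and -0.21 for all genes tested.

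All 10 members were lower on the deposited scale in NZB glands on day 8 (background 91.6% of 16138 genes tested) and day 14 (background 91.2%), and in C57 glands on day 8 (background 90.9%), day 14 (background 88.8%) and day 21 (background 89%). In NZB on day 21, Mfn1 was higher and Bnip3 lower by the test (2 of 10, background 41.6%). The median gene itself shifted by -1.80, -1.72 and -0.40 in NZB and by -1.80, -1.59 and -1.60 in C57 on days 8, 14 and 21. Relative to that median, Mfn2 lay lower by 1.57 and Bnip3 by 1.02 in NZB on day 8 and Mfn1 higher by 0.93.

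**Figure D3:**
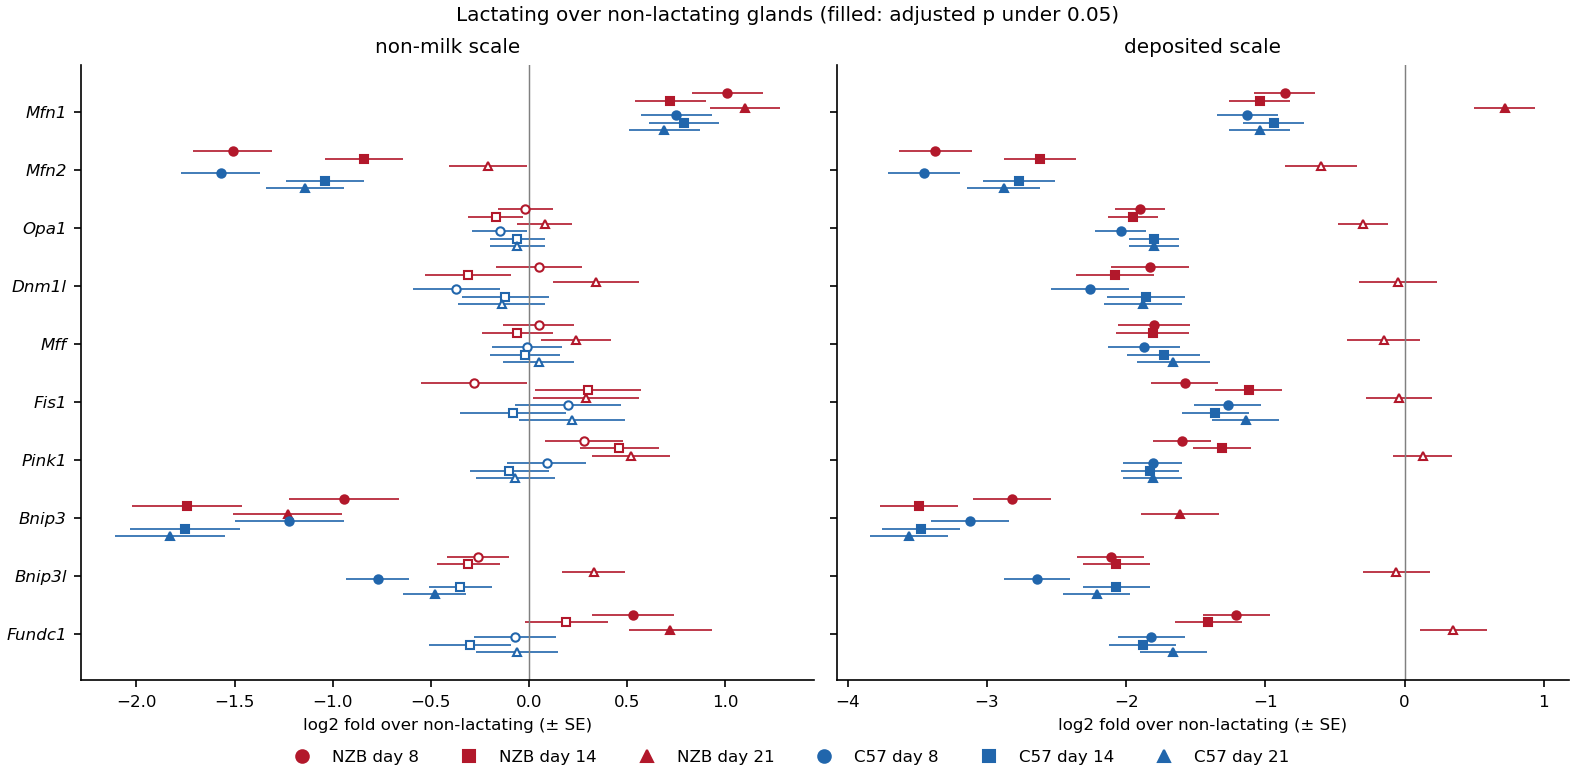
Log2 fold of each lactating group over the non-lactating glands of its genotype (horizontal axes, points with ± SE bars from limma, 3 mice per group) on the non-milk scale and on the deposited scale, with days 8, 14 and 21 as circles, squares and triangles and values past an adjusted p of 0.05 filled. On the non-milk scale Mfn1 lies right of 0 in all 6 comparisons and Bnip3 left of it; on the deposited scale all 10 genes lie left of 0 except in NZB on day 21.

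White adipocyte markers moved with these results. All 12 fell in C57 on each day and in NZB on days 8 and 14, and 11 of 12 fell in NZB on day 21. Their sums were 589.6 to 990.1 CPM in NZB glands on days 8 and 14, 1429 to 4533 CPM in NZB glands on day 21, and 471 to 1004 CPM in C57 lactating glands, against 5322 to 14770 CPM in NZB and 7082 to 12260 CPM in C57 non-lactating glands. Within the non-lactating glands the 2 mice with the lowest sums, NZB mouse 3 and C57 mouse 2, had the lowest Mfn2 (121 and 146 CPM) and the lowest Bnip3 (115 and 163 CPM) of their groups. Among lactating glands NZB day 21 mouse 1 had the highest sum, 4533 CPM, and the highest Bnip3 of the day 21 glands, 121 CPM. Mfn2 went the other way, since that mouse had the lowest Mfn2 of the NZB day 21 glands. It stood at 136 CPM, against 154 and 162 CPM in mice 2 and 3, whose marker sums were 1429 and 1546 CPM. Fibroblast markers moved alike, at 472 to 2230 CPM in NZB lactating glands and 498 to 843 CPM in C57 lactating glands, against 2139 to 7784 CPM in NZB and 4035 to 7965 CPM in C57 non-lactating glands. Endothelial markers fell too, 7 of 7 in NZB on days 8 and 14, 5 on day 21, and 5, 6 and 6 in C57. Of 8 macrophage markers 7, 4 and 0 fell in NZB, where 2 rose on day 21, and 8, 6 and 7 fell in C57. Of 8 hormone-sensing epithelial markers 6, 4 and 1 fell in NZB and 7 on each day in C57. Basal and myoepithelial markers rose, 9 of 9 in NZB and 3 of 9 in C57 on each day. The 7 luminal secretory markers summed to 2017 to 3610 CPM in NZB and 1647 to 2274 CPM in C57 lactating glands. Their non-lactating sums were 90.2 to 254 CPM in NZB and 378 to 877 CPM in C57. The 6 brown adipocyte markers stood at 754 to 1293 CPM in NZB on days 8 and 14 and 559 to 1308 CPM in C57 lactating glands. They stood at 59.2 to 95.5 CPM on NZB day 21 and 7.1 to 49.4 CPM in non-lactating glands. Ucp1 was at 0 in every gland of NZB day 8 and C57 days 8 and 14. B cell markers fell in NZB, 8, 6 and 7 of 8, from a baseline in which mice 2 and 3 summed to 709 and 1538 CPM. NZB non-lactating mouse 1, at 39.3 CPM, lay within the NZB day 21 range of 37.5 to 41.2 CPM. The part of these cell types in the lower Mfn2 and Bnip3 and in the Mfn1 values was not tested. Without NZB non-lactating mouse 3 and C57 non-lactating mouse 2, Mfn1, Mfn2 and Bnip3 kept every call they had in the 6 comparisons. For Mfn2 and Bnip3 this was close to fixed in advance, since these 2 mice had the lowest values of their groups. It does not bear on the part of the cell types.

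**Figure D4:**
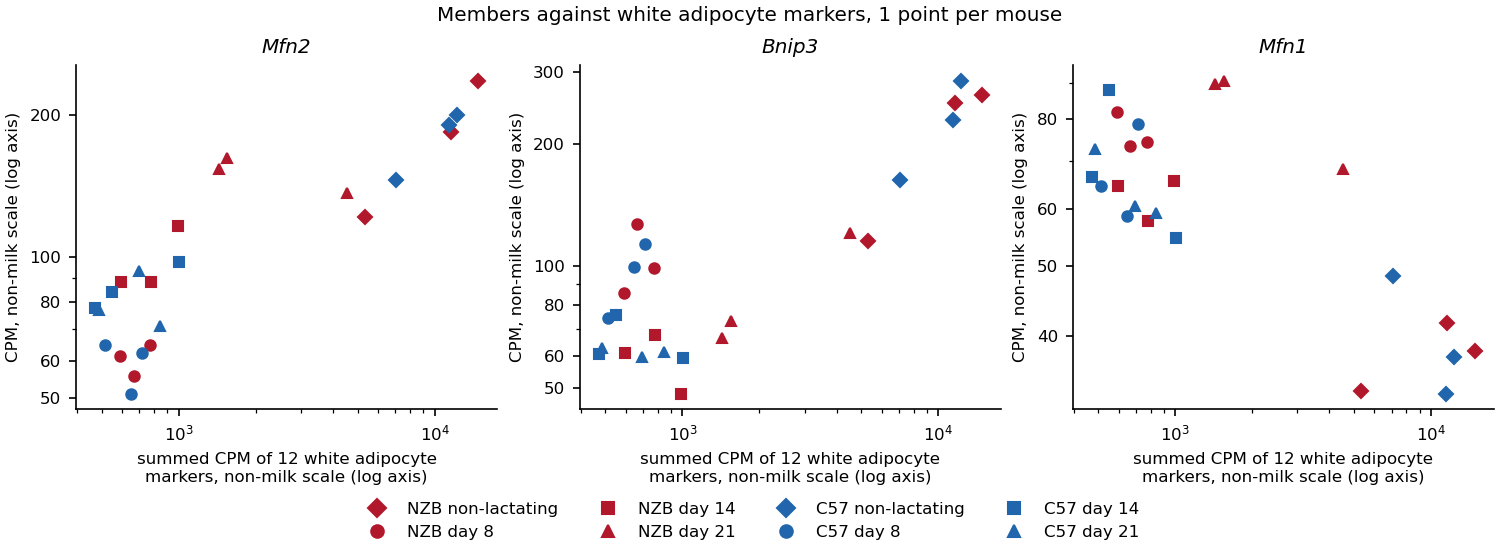
Mfn2, Bnip3 and Mfn1 (CPM, non-milk scale, log axes) against the summed CPM of 12 white adipocyte markers (log axes), with 1 point per mouse, NZB in red and C57 in blue, and stages by symbol. Non-lactating glands (diamonds) lie at 5322 CPM of markers or more; Mfn2 and Bnip3 are high there and Mfn1 is low, and NZB day 21 glands (red triangles) lie between them and the other lactating glands in marker level.

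Promoter sequences are shown for the 3 members called in most lactation comparisons, because Bnip3 is a known hypoxia target and the short core of the hypoxia response element can be read in the letters. They are RefSeq sequences of GRCm38.p6, 230 bases from 250 to 21 bases before the annotated start, 5′ to 3′ on the strand of the gene. Capitals mark the cores ACGTG and GCGTG on either strand, which can overlap an E-box (CACGTG).
Bnip3 promoter, chr7:138909527-138909756, - strand: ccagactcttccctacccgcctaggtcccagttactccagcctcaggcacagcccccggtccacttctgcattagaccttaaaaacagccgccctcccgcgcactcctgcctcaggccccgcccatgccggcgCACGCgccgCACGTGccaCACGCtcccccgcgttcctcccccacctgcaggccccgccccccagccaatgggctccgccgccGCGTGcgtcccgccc
Mfn2 promoter, chr4:147904930-147905159, - strand: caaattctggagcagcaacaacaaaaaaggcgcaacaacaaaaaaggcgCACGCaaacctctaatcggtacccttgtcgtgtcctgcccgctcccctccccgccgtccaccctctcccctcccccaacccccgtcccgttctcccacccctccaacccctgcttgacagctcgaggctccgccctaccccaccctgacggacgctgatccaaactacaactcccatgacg
Mfn1 promoter, chr3:32529232-32529461, + strand: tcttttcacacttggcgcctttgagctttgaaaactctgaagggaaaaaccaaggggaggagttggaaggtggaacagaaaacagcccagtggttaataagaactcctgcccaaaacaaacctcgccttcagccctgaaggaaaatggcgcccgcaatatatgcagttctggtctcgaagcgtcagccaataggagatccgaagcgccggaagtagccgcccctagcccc

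The Bnip3 window held 5 core matches, a pair of them overlapping in an E-box at 108 to 103 bases before the start. The Mfn2 window, the farthest upstream of its 3 annotated starts, held 1 match, its other windows held 1 and 2, and the Mfn1 window held none. Of 27025 promoters of the same length, 15.1% held ACGTG, 26.1% held GCGTG and 5.38% held CACGTG. Of the 10 members 9 had a sequence in the table, and Bnip3l is only named here. These matches describe letters in a window and not binding. In the glands Bnip3 fell on all 3 days of both genotypes. The hypoxia-responsive genes Slc2a1 and Ndrg1, which encode a glucose transporter and a stress-response protein, rose on the non-milk scale. On the deposited scale both also rose, except Ndrg1 in C57 on day 8 (0.58 ± 0.28, limma adjusted p = 0.055). They belong to a list of hypoxia targets that went both ways, as given below. The part of hypoxia in the Bnip3 values was not tested.

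The other hypoxia targets were split. In NZB, 5 of the 28 tested rose and 9 fell on day 8, 7 and 7 did on day 14 and 5 and 7 on day 21 on the non-milk scale. In C57, 7 rose and 9 fell on each day. Over all genes tested, 14.8 to 17.3% rose and 15.6 to 33% fell in NZB on that scale. In C57, 13 to 13.9% rose and 25.4 to 32.1% fell, so falls within the list are to be read beside these shares. In NZB on day 8 Ndrg1 was higher by 3.13 ± 0.24 and Slc2a1 by 3.14 ± 0.25 on the log2 scale (limma adjusted p = 8.8e-10 and 1.4e-09). Aldoa, a glycolytic aldolase, was lower by 2.09 and Pfkfb4, a regulator of glycolysis, by 2.46 (limma adjusted p = 8e-07 and 1e-06). In C57 on day 21 Ndrg1 was higher by 3.77 ± 0.24, Slc2a1 by 3.01 ± 0.25 and Pdk1, a pyruvate dehydrogenase kinase, by 1.66 ± 0.15, and Pfkfb3 was lower by 3.77 (limma adjusted p = 6.2e-11, 3.8e-09, 1.2e-08 and 5.7e-06). The list medians lay at -0.16, 0.01 and -0.20 in NZB and -0.42, -0.10 and -0.10 in C57, beside all-gene medians of -0.32, -0.35 and -0.06 and -0.33, -0.20 and -0.21. Of the 28, 21 to 25 were lower on the deposited scale in C57 throughout lactation and in NZB on days 8 and 14, and 13 in NZB on day 21.

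The other mitophagy genes, 35 of them tested, had more members called higher than lower in NZB on each day and in C57 on days 14 and 21 on the non-milk scale, and fewer on the deposited scale except in NZB on day 21. In NZB 12, 13 and 17 of them rose and 6, 4 and 1 fell on days 8, 14 and 21 on the non-milk scale. In C57 8, 11 and 10 rose and 8, 6 and 6 fell. Of all genes tested, 14.8, 15.4 and 17.3% rose and 33, 31.5 and 15.6% fell in NZB, and 13, 13.9 and 13.7% rose and 32.1, 25.4 and 26.4% fell in C57. The list medians were 0.01, 0.12 and 0.46 in NZB and -0.13, 0.06 and 0.02 in C57, and the all-gene medians were those given above. Prkaa2, a catalytic subunit of AMP-activated kinase, was higher on day 8 by 5.02 ± 0.29 in NZB and 4.73 ± 0.29 in C57 while Prkaa1, the alternative subunit, was lower by 2.25 and 2.21 (limma adjusted p = 7.1e-12, 2.5e-11, 3.9e-07 and 4.7e-07). Nbr1 and Tax1bp1, receptors of selective autophagy, were higher by 1.60 ± 0.13 and 1.75 ± 0.15 in NZB on day 8 (limma adjusted p = 3.3e-09 and 4.7e-09), and Bcl2l13, an outer membrane mitophagy receptor, was lower by 0.92. On NZB day 21 Map1lc3b, which encodes an LC3 protein, was higher by 1.5 ± 0.19, Vcp, an unfoldase, by 1.12 ± 0.17 and Src, a kinase that acts on Fundc1, by 1.45 ± 0.23 (limma adjusted p = 2.1e-06, 3.6e-05 and 4.6e-05). Of the 35, 1 was higher on the deposited scale and 30 to 33 lower in C57 throughout lactation and in NZB on days 8 and 14, and 8 were higher and 4 lower in NZB on day 21. Nbr1 and Tax1bp1 did not pass there on NZB day 8 (-0.31 ± 0.18 and -0.16 ± 0.20, limma adjusted p = 0.11 and 0.43).

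The other genes of fusion, fission and inner membrane shaping, 32 tested, were split. On days 8, 14 and 21, 4, 3 and 3 rose and 6, 9 and 3 fell in NZB on the non-milk scale. In C57, 4 rose on each day and 7, 6 and 7 fell. The shares of all genes tested that rose and fell were those given above. Fam73b, which promotes fusion at the outer membrane, was lower on day 8 by 2.59 in NZB and by 2.55 in C57, and Trak1, a motor adaptor, by 1.15 and 1.29 (limma adjusted p = 4.3e-07, 5.3e-07, 1.9e-06 and 3.9e-07). Chchd6, of the cristae-organising complex, was lower by 1.65 in NZB, and Mtfr1, a fission regulator, and Samm50, of the sorting and assembly machinery, were higher by 1.37 ± 0.22 and 0.77 ± 0.19 (limma adjusted p = 9.6e-05, 2.4e-05 and 0.0016). None of the 32 was higher on the deposited scale in C57 throughout lactation or in NZB on days 8 and 14 by limma, and 30 or 31 were lower, Mtfr1 and Samm50 included on NZB day 8 (-0.51 and -1.04). In NZB on day 21, 1 was higher and 11 were lower on that scale. A list of 18 genes taken as a reference for mitochondrial content had 1, 0 and 1 higher and 5, 5 and 7 lower in NZB on days 8, 14 and 21. In C57 it had 3, 2 and 1 higher and 3, 5 and 4 lower. Idh3a, a citrate cycle enzyme, was lower by 1.69 in NZB and 1.84 in C57 on day 8. Cs, citrate synthase, was higher by 1.13 in C57 on day 8, although Cs fell there on the deposited scale by 0.81. The list medians were -0.32, -0.32 and -0.50 in NZB and -0.14, -0.21 and -0.16 in C57. In deposited values all 18 were lower in C57 throughout lactation and in NZB on days 8 and 14, and 12 were lower in NZB on day 21. Of 15 FoxO targets, 2, 3 and 3 were higher and 5, 4 and 2 lower in NZB and 3, 2 and 2 higher and 3, 3 and 2 lower in C57. Their medians were -0.30, 0.00 and 0.13 in NZB and -0.19, 0.16 and 0.14 in C57. In deposited values 14 were lower in NZB on days 8 and 14, 12, 14 and 15 in C57 on the 3 days, and 2 were higher and 4 lower in NZB on day 21.

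The next comparisons set NZB against C57 glands at the same stage. No member passed before lactation, on day 8 or on day 14 on the non-milk scale, by limma or by limma voom. Of all genes tested, 5.3%, 0.0434% and 0.0372% passed by limma at these stages. At an unadjusted p under 0.05 there was 1 member in non-lactating glands (Fundc1, log2 -0.49 ± 0.21), 1 on day 8 (Dnm1l, 0.49 ± 0.22) and 0 on day 14. The deposited scale gave no call at these stages either, with backgrounds of 7.43%, 0.031% and 0.031%, 1, 0 and 0 members at an unadjusted p under 0.05 and 0 by voom.

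On day 21 Mfn2 and Bnip3l were higher in NZB on the non-milk scale, 2 of 10 beside a background of 25.7%. Mfn2 averaged 151 ± 13.2 CPM in NZB and 80.4 ± 11.5 CPM in C57 (SD, n = 3), a log2 difference of 0.91 ± 0.20 (limma adjusted p = 0.002). Bnip3l averaged 97.1 ± 9.72 CPM in NZB and 65.7 ± 8.40 CPM in C57, a log2 difference of 0.56 ± 0.16 (limma adjusted p = 0.013). For both genes every NZB gland of day 21 lay above every C57 gland. That adds no support to the test, which used the same values, and the share of all genes so separated was not counted. Dnm1l followed at 0.55 ± 0.22 (limma adjusted p = 0.068), with 112, 128 and 116 CPM in NZB and 97.1, 85.1 and 63.5 CPM in C57, which also did not overlap. The median gene was higher by 0.31, and with median-of-ratios size factors neither gene passed (Mfn2 0.61, adjusted p = 0.11, and Bnip3l 0.27, adjusted p = 0.39). The Bnip3l call was also lost without NZB day 21 mouse 3 (0.48, adjusted p = 0.059) or C57 day 21 mouse 2 (0.50, adjusted p = 0.062), and without C57 day 21 mouse 1 Dnm1l passed (0.68, adjusted p = 0.04).

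Between days 14 and 21 the genotypes were set against themselves. In NZB Mfn2, Dnm1l and Bnip3l were higher on day 21 than on day 14 on the non-milk scale, 3 of 10 beside a background of 23.1%. The log2 differences were 0.63 ± 0.20, 0.66 ± 0.22 and 0.64 ± 0.16 (limma adjusted p = 0.025, 0.035 and 0.0063). For each of these genes the 3 NZB mice of day 21 lay above all 3 of day 14. As the genes were picked by the test on these same values, this adds no support. The share of all genes separated in this way was not counted. The median gene was itself higher by 0.29, and the 3 genes lay 0.34, 0.36 and 0.35 above it. Leaving out single mice left 1 or 2 of these calls, Bnip3l among them each time. Mfn2 stood at 0.57 to 0.62 (adjusted p = 0.07 to 0.1) without NZB day 14 mouse 1 or 2 or day 21 mouse 2 or 3. Dnm1l stood at 0.49 to 0.70 (adjusted p = 0.059 to 0.18) without NZB day 14 mouse 2 or 3 or any mouse of day 21. With median-of-ratios scaling none of the 3 passed by limma (0.36 to 0.38, adjusted p = 0.12 to 0.38). In C57 no member passed by limma or voom between days 21 and 14, with 0 members at an unadjusted p under 0.05 and a background of 0% (173 genes at an unadjusted p under 0.05, and 0 genes passing by voom), and log2 differences of -0.14 to 0.30.

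The test of the difference between these changes, NZB over C57, was passed by Bnip3l alone, 1 of 10 beside a background of 6.77%, at 0.78 ± 0.23 on the log2 scale (limma adjusted p = 0.04). Its NZB glands held 93.0, 90.2 and 108 CPM on day 21 and 62.0, 59.2 and 63.8 CPM on day 14, and its C57 glands 75.3, 59.8 and 62.0 CPM on day 21 and 81.9, 66.1 and 68.8 CPM on day 14. The call was lost by voom (0.79, adjusted p = 0.054), by median-of-ratios scaling (0.49, adjusted p = 0.36) and on leaving out any of 9 of the 12 mice (0.69 to 0.83, adjusted p = 0.051 to 0.11). Mfn2 had 0.74 ± 0.28 (limma adjusted p = 0.11) and Dnm1l 0.68 ± 0.31 (limma adjusted p = 0.19). The median gene stood at 0.31 in the same test.

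On the deposited scale, where milk transcripts took 18.07 to 30.37% of counts in NZB and 61.69 to 75.97% in C57 glands on day 21, all 10 members were higher in NZB than C57 on day 21 (background 86.2%), by 1.12 for Fis1 to 2.24 for Mfn2 on the log2 scale. All 10 were also higher in NZB on day 21 than on day 14 (background 86.7%), by 1.07 to 2.03. None passed in C57 by limma or voom (0 at an unadjusted p under 0.05, background 0%, 19 genes at an unadjusted p under 0.05 and 0 genes passing by voom). The difference between the changes passed for all 10 (background 75%), at 0.86 for Fis1 to 2.15 for Bnip3l, beside a median gene at 1.38. The Fis1 call of that difference was lost by voom (adjusted p = 0.065) and on leaving out any of 5 of the 12 mice (0.69 to 0.83, adjusted p = 0.051 to 0.086).

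**Figure D5:**
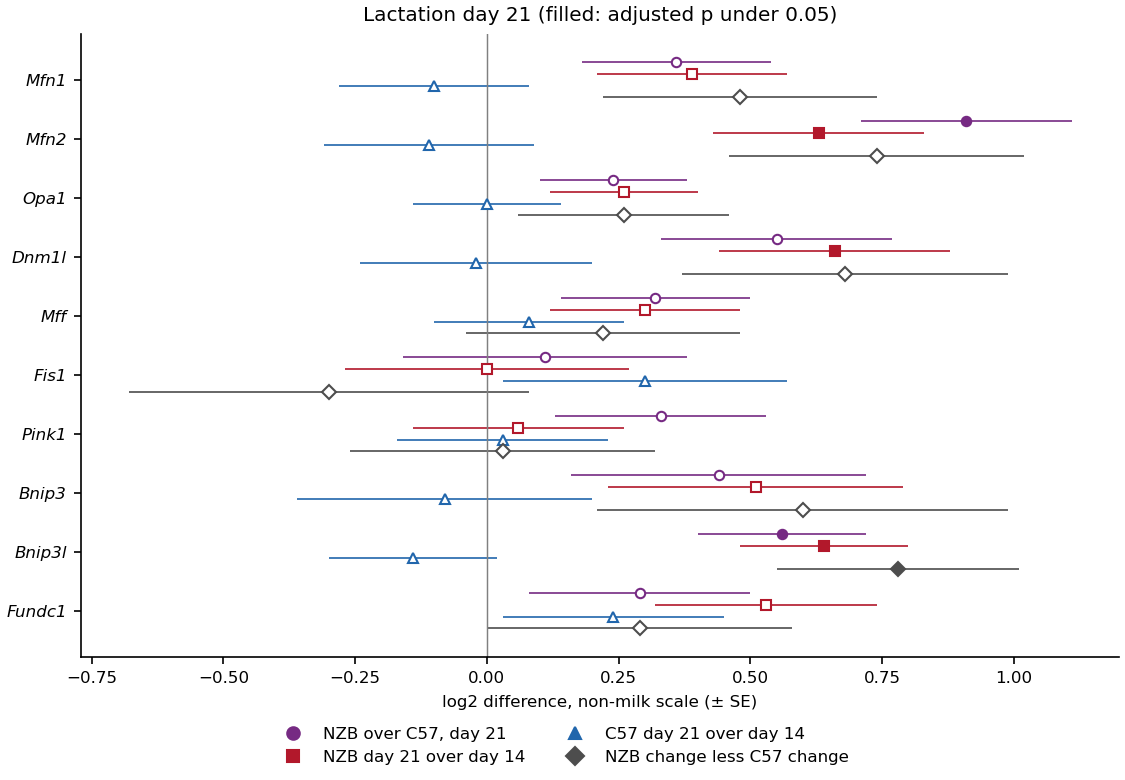
Log2 differences on the non-milk scale (horizontal axis, points with ± SE bars from limma, 3 mice per group) for NZB over C57 on day 21, NZB day 21 over day 14, C57 day 21 over day 14 and the difference between these changes, with values past an adjusted p of 0.05 filled. Mfn2 and Bnip3l are filled for NZB over C57, Mfn2, Dnm1l and Bnip3l for NZB day 21 over day 14, and Bnip3l alone for the difference between the changes.

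Other cell types moved on day 21 as well. Of the 12 white adipocyte markers 10 were higher in NZB than C57 glands, with sums of 1429 to 4533 CPM in NZB and 487 to 844 CPM in C57. All 8 skeletal muscle markers were higher in NZB, at 282, 950.3 and 7.51 CPM in the 3 mice, against 3.71 to 9.08 CPM in C57. Of 8 fibroblast and 8 macrophage markers, 7 each were higher. Luminal secretory epithelium had 5 of 7 markers higher in NZB, with a list median of 2.12. Its marker sums overlapped, however, at 2085, 2663 and 3610 CPM in NZB and 2113, 2274 and 2228 CPM in C57. Erythroid cells had 4 of 6 markers lower, with a median of -1.52. Macrophage marker sums stood at 375 to 729.8 CPM in NZB and 166 to 202 CPM in C57. NZB mouse 3 had the highest Mfn2 (162 CPM) and Bnip3l (108 CPM) of the NZB day 21 glands. Its muscle markers were as low as in C57, and its luminal secretory sum, 3610 CPM, was the highest of its group. The part of fat, muscle, stroma, macrophages, epithelium and blood in the higher Mfn2 and Bnip3l was not tested.

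Among the other mitophagy genes 11 of 35 were higher and 4 lower in NZB than C57 on day 21, with a list median of 0.34 beside 0.31 for all genes. Prkaa2 was lower by 2.53 and Nbr1 by 0.72, whereas Prkaa1 was higher by 1.60 ± 0.26 and Tomm70a, an import receptor, by 0.92 ± 0.18 (limma adjusted p = 2.4e-06, 0.00058, 0.00014 and 0.00062). Of the 15 FoxO targets, 7 rose and 3 fell in NZB against C57, and the list median was 0.79. Fbxo32, a ubiquitin ligase of muscle atrophy, was higher by 1.88 ± 0.27, Pdk4 by 3.30 ± 0.55, and Klf15 was lower by 2.0 (limma adjusted p = 3.6e-05, 0.00017 and 0.00029). The fusion and fission list had 6 higher and 1 lower of 32, the hypoxia list 5 and 5 of 28 and the mitochondrial reference list 2 and 1 of 18. Beside these lists, 20% of all genes tested were higher and 5.7% lower. In deposited values 33, 12, 31, 22 and 17 genes of these lists, in the same order, were higher, and 1 mitophagy gene was lower, where 85.2% of all genes tested were higher and 1% lower. Nbr1 was then higher by 0.65, and Klf15 did not pass (-0.66 ± 0.36, limma adjusted p = 0.089).

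The genes most like each member over the 24 mice were found by Pearson correlation of log2 values on the non-milk scale among 11981 candidates. The mice share stage and genotype groups, so these are descriptions without a test. Mfn2 was most like Phlda3 (r = 0.97) and the aldolase Aldoa (r = 0.96), Bnip3 most like Adhfe1 (r = 0.97) and Adgrg2 (r = 0.95), and Mfn1 most like Tlr4 (r = 0.94) and Golga7 (r = 0.93). Bnip3l was most like Pttg1ip and Dnm1l most like Vcpip1 (r = 0.92 each), Pink1 most like the LC3 relative Gabarap (r = 0.86) and Mff most like the motor adaptor Trak2 (r = 0.86). The best match was weaker for Opa1 (Manea, r = 0.83), Fundc1 (Eif2s3x, r = 0.83) and Fis1 (Arf5, r = 0.63).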

How the data were processed

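Per the file itself, the authors deposited 1 table of log10 values, log10(CPM + 1), for 32544 gene symbols with 2 columns per mouse; the submitters' processing notes name the builds mm10 and GRCm38, with aligner and strand setting not given in the sources used here. The unit differed from the counts first assumed, so limma on log2 values was used. The values were turned back to CPM, 100% of them gave whole reads within a tolerance of 0.05, and the 2 columns of a mouse were averaged as 1 replicate. The non-milk scale leaves out 19 milk protein genes. Genes above 1 CPM in at least 3 samples were fitted with limma 3.58.1 (R 4.3.3; Python 3.11.15 with pandas 2.3.3) on log2(CPM + 1), with 8 group means over 24 mice, a trended prior and Benjamini-Hochberg adjustment over all genes tested, called at 0.05. Folds on this scale understate the change of low genes. The fit was tested on simulated data. The members and lists were chosen with earlier results of these data known. All members are named; from each list up to 4 genes with the smallest adjusted p in a comparison, and up to 2 in the other direction. Spreadsheet conversion had turned 27 symbols into dates, none of them a member. Same-numbered mice of different groups correlated at -0.39 to 0.57 and differently numbered mice at -0.58 to 0.36 (median 0.0 for each). Replicate numbers were therefore not treated as pairs, although these pooled values cannot exclude pairing among some groups. Alternatives changed the filter, pseudocount, scaling, milk list, fit and mice. Intervals of depth cover counting error only.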

Additional observations from a re-analysis of the deposited data

Results flagged for a closer look

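The change of day 21 over day 14 differed between NZB and C57 glands by the test of the difference itself for Bnip3l on the non-milk scale, at 0.78 ± 0.23 on the log2 scale (limma adjusted p = 0.04). The median gene there stood at 0.31, beside a background of 6.77%, and the call held in 11 of 22 alternatives. On the deposited scale all 10 members differed, at 1.85 for Mfn1, 2.13 for Mfn2, 1.65 for Opa1, 2.05 for Dnm1l, 0.86 for Fis1, 1.59 for Mff, 1.43 for Pink1, 1.96 for Bnip3, 2.15 for Bnip3l and 1.55 for Fundc1, beside a median gene at 1.38 and a background of 75%. With 3 mice per group no single mouse was tested as an outlier.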

How the results depend on the processing

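Of 4240 single-gene folds recomputed under alternatives, 4146 kept their side of the threshold, and 64 lost and 30 gained a call. No called fold changed sign (0), but 184 folds that passed neither as reported nor under the alternative did. The first of each mouse's columns alone changed 0 calls among 260 folds. Counts of members called on the non-milk scale moved as follows. Fitting the compared groups alone gave 2 for NZB day 8 over non-lactating glands (4 as reported) and 1 for NZB day 21 (3 as reported). Leaving out NZB mouse 3 and C57 mouse 2 of the non-lactating groups, an alternative chosen after seeing the data, gave 5 for NZB day 21 over non-lactating glands. Leaving out only 8 milk genes gave 5 for NZB day 14, 5 for NZB over C57 on day 21 (2 as reported), 6 for NZB day 21 over day 14 (3 as reported) and 2 for the difference between these changes (1 as reported). Median-of-ratios size factors gave 0 for each of the last 3 by limma, and voom gave 0 for the difference. On the deposited scale NZB day 21 over non-lactating glands gave 1 with the compared groups alone and 1 with sample weights (2 as reported). Leaving out single mice gave 2 to 4 for NZB day 8, 1 to 3 for NZB over C57 on day 21, 1 to 2 for NZB day 21 over day 14, 0 to 1 for the difference between the changes and 1 to 3 for NZB day 21 on the deposited scale. The cause of these moves was not tested. The labels give mice of different groups only a shared number. The replicate block gave 109 member calls over the 26 comparisons, as without it, with 4 for C57 day 8, and changed no call. Depth limits Fis1 most, with as few as 18 reads in a mouse.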
